A study of Mus musculus with 8 samples.

Results

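The integrated stress response effectors are 10 genes, Atf4, Atf5, Atf3, Ddit3, Ddit4, Trib3, Ppp1r15a, Ppp1r15b, Cebpb and Cebpg, and their m6A peaks were taken by gene name from 4 lists of MeRIP-seq peaks. MeRIP-seq pulls down RNA fragments that carry N6-methyladenosine (m6A) with an antibody, and a peak is a stretch where the pulled-down (IP) library exceeds its input library. Peaks of 9 of the 10 genes were listed, 48 in all among 38705, and they merged into 18 regions among 21168 when peaks that shared at least 1 bp were joined. Atf4 had no peak in any list.

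The cells were mouse embryonic fibroblasts (MEFs) of wild type C57BL/6 embryos at day 13.5, used at passages 5 to 6. Control cells were kept in complete medium with serum, and starved cells spent 2 h in nutrient-deprived medium, per the study's methods a buffered salt solution. Each group had 2 IP libraries, each with its input library, so 8 samples were made and 4 peak lists were analysed. The libraries are called control 1, control 2, starved 1 and starved 2. The study's supplement describes the replicates as biological.

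In the integrated stress response, kinases that sense missing amino acids, unfolded protein, haem shortage or viral RNA phosphorylate eIF2α, the regulated subunit of the factor that brings initiator tRNA to the ribosome. Most translation then slows, while mRNAs with upstream open reading frames such as Atf4 are translated better. ATF4 and its partners of the bZIP family switch on genes for amino acid supply, redox balance and, under lasting stress, cell death. The Ppp1r15 proteins guide a phosphatase back to eIF2α and end the response. In fibroblasts, amino acid withdrawal acts on this pathway mainly through the kinase GCN2.

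The lists held 10103, 9871, 9757 and 8974 peaks in control 1, control 2, starved 1 and starved 2. Their median fold enrichment, the ratio of IP to local input signal, was 12.21 and 12.27 in the control lists and 14.58 and 14.69 in the starved lists. The score of a peak is −10 times the log10 of its p-value and was limited to 3100 for most strong peaks, a limit reached by 17.0% and 13.2% of control peaks and by 28.5% and 27.8% of starved peaks. Reads and depth are not in these lists, so no counting error could be given for a peak, and the absence of a peak may reflect low RNA level or depth as well as low m6A. The part of these differences between lists in the results on the 10 genes was not tested. Results with scaled libraries and with lists of equal length are given below. Of 12 fibroblast marker genes 10 had a peak, as did 4 of 5 neural, 3 of 6 epithelial, 2 of 5 endothelial and 1 of 6 haematopoietic markers. Peaks therefore do not set the fibroblast label apart from a neural one, and a gene without a peak may still be expressed.

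The m6A writer complex prefers adenosines in short contexts, of which GGAC is the most frequent, so a GGAC is shown for each region found in at least 3 libraries. It is the one that lies under the peaks of the most libraries and nearest to their mean centre, read from the RefSeq GRCm38.p6 genome on the strand of the gene, with the GGAC in capitals. An Atf4 site is added as the one nearest to its stop codon, with no peak over it.
Atf3, 3′ UTR, chr1:191170633-191170660: tcaaagggtgtaGGACtccatactcagt
Ddit3, 3′ UTR, chr10:127296183-127296210: atgctgaggaggGGACtgagggtagacc
Ddit4, 3′ UTR, chr10:59950423-59950450: gcaaggactgaaGGACtgtcccctgtgt
Trib3, coding sequence, chr2:152338261-152338288: ccgaagggagatGGACcaggtggtccca
Ppp1r15a, coding sequence, chr7:45523994-45524021: agaagaggaagaGGACagtgagaatgtg
Ppp1r15b, coding sequence, chr1:133132715-133132742: ccttctccggatGGACccacaacattgc
Ppp1r15b, coding sequence near the stop codon, chr1:133136842-133136869: gatcgagtcaaaGGACttactgttgtac
Cebpb, coding sequence, chr2:167689663-167689690: caagaagacggtGGACaagctgagcgac
Cebpg, 3′ UTR, chr7:35050149-35050176: aacaaaattcctGGACtttaatattctt
Atf4, coding sequence, chr15:80256637-80256664: atgccttttccgGGACagattggatgtt

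The groups differed little in which of the genes had a peak. The number of member peaks was 11 and 12 in the control lists and 12 and 13 in the starved lists, and the number of member genes with a peak was 8 and 6 against 9 and 8. The means differed by 1.0 peak, with an SD of 0.707 in each group, and by 1.5 genes, with SDs of 1.41 and 0.707. In both counts the groups shared a value, so they were not separate. Of the 18 regions, 6 had a peak in all 4 libraries, 3 in 3 libraries, 2 in 1 library of each group and 7 in 1 library. No region had peaks in both starved libraries and neither control library, where the share over all merged regions was 3.2%, and none had the opposite pattern, where it was 4.15%. Regions with peaks in all 4 libraries made up 10.7% of all merged regions and regions of 1 library 56.2%.

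At the level of genes, Atf3, Trib3, Ppp1r15a, Ppp1r15b, Cebpb and Cebpg had a peak in every list, 6 of the 9 with any peak. Of all gene names with a peak, 29.2% had one in every list. Ddit3 and Ddit4 each lacked a peak in control 2 only, and Atf5 had a peak in starved 1 only. All 3 regions with peaks in 3 libraries lacked the one in control 2, which was the library without a peak in 25.4% of such regions over all genes.

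In 3 of the 6 member regions found in all 4 libraries, both starved libraries had a higher fold enrichment than both control libraries, against 22.9% of the 2257 such regions over all genes. These were the region over the Cebpg coding sequence, the large coding exon of Ppp1r15b and the single exon of Cebpb. In the other 3 the groups overlapped, and in none were both starved values lower, an order found in 18% of all such regions. The median log2 difference, starved minus control, was 0.98 over the 6 regions and 0.10 over the 2257. With 2 libraries per group the two-sided exact permutation test cannot give a p below 0.3333, so no single difference could pass 0.05.

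**Figure D1:**
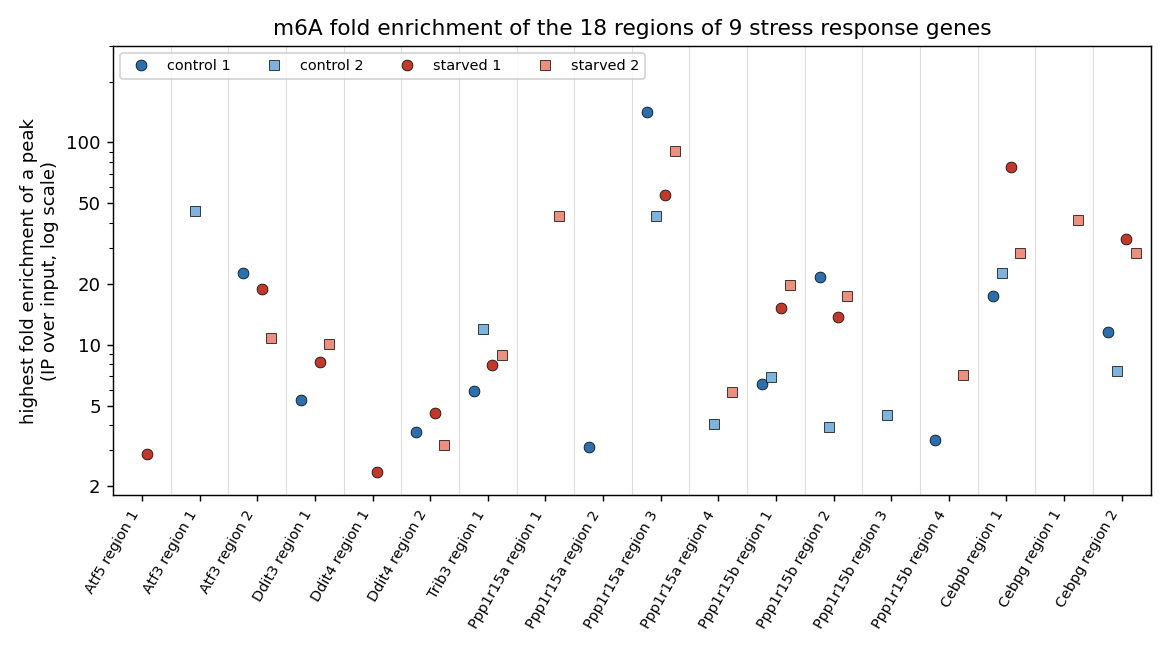
Highest fold enrichment of a peak (IP over input, log scale) in each of the 18 regions, with control 1 and control 2 as dark and light blue points and starved 1 and starved 2 as dark and light red points, and no point where no peak was listed. Ppp1r15a region 3 reached 142.16 in control 1, and in Ppp1r15b region 1, Cebpb region 1 and Cebpg region 2 both red points lie above both blue points.

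Atf4, the main transcription factor of the response, is encoded at chr15:80255184-80257541 (GRCm38, the assembly of mm10, plus strand). None of the lists named a peak for it, and none overlapped its exons under another gene's name. Its spliced mRNA of 1725 nt carries 4 GGAC, 2 in the 5′ UTR and 2 in the coding sequence, the nearest of them 808 nt before the stop codon. Its RNA level in these cells cannot be read from peak lists.

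Atf5, a relative of ATF4 whose translation is also raised through upstream reading frames, had 1 peak in 1 library. It lay in the 3′ UTR at chr7:44812256-44812674, in starved 1, with a fold enrichment of 2.88 and a score of 101.04. That placed it at percentile 0.7 of the fold enrichments in its list, among the weakest peaks.

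Atf3, a stress-induced bZIP factor that acts downstream of ATF4, had 2 separate regions on the minus strand of chromosome 1. Region 2, in the 3′ UTR at chr1:191170455-191170829, had fold enrichments of 22.66 in control 1, 18.94 in starved 1 and 10.81 in starved 2, with scores of 518.37, 769.34 and 261.75, and no peak in control 2. The starved values were below the single control value. The edges of these peaks were nearly the same, with 372 of 375 bp shared by all of them. Region 1, at chr1:191171466-191171666 over the end of the coding sequence, was listed in control 2 only, with a fold enrichment of 45.61 and a score of 1173.99. Atf3 thus had a peak in every list, but that of control 2 lay in another part of the transcript.

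Ddit3 encodes CHOP, the bZIP factor tied to cell death under lasting stress, and had 1 region at chr10:127295723-127296288 in its last exon, from the coding sequence through the whole 3′ UTR. Fold enrichment was 5.33 in control 1, 8.18 in starved 1 and 10.08 in starved 2, with scores of 495.88, 899.85 and 2640.82, and control 2 had no peak. Both starved values were above the single control value, which allows no test. The peak began at 127295762 in control 1, at 127295723 in starved 1 and at 127295962 in starved 2, and all ended at the annotated end of the transcript. The only GGAC of the Ddit3 mRNA lies 107 nt after the stop codon and was under all 3 peaks. Exons of Mars, a tRNA synthetase gene, overlap here on the opposite strand, and the lists give no strand, so the assignment to Ddit3 rests on the authors' naming.

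Cebpb, a bZIP factor that pairs with ATF4 and also drives inflammatory and adipocyte genes, has a single exon, and its region covered nearly all of it, at chr2:167688960-167690375 on the plus strand. The fold enrichment reached 17.48 in control 1, 22.61 in control 2, 75.35 in starved 1 and 28.32 in starved 2. The score was 2550.49 in control 1 and at the limit of 3100 in the others. Both starved libraries were above both control libraries, although starved 2 was nearer to the controls than to starved 1. The log2 difference was 1.22, with means of 4.31 ± 0.26 and 5.53 ± 1.00 (SD, n = 2 each), or 2.32-fold, and the two-sided exact permutation p was 0.3333. Without starved 1 the log2 difference was 0.51. A total of 873 bp was shared by the 4 peaks, and an exon of Tmem189 overlaps on the opposite strand.

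Cebpg, a bZIP factor that pairs with ATF4 at amino acid and redox genes, had the largest difference of the 6 member regions in all 4 libraries. Region 2, at chr7:35049683-35050932 on the minus strand, spans the end of the 5′ UTR, the coding sequence and the start of the 3′ UTR. Fold enrichment was 11.57 in control 1 and 7.45 in control 2, with scores of 587.42 and 249.51. It was 33.2 in starved 1 and 28.38 in starved 2, both at the score limit of 3100. Both starved libraries were above both control libraries. The log2 difference was 1.73, with means of 3.21 ± 0.45 and 4.94 ± 0.16 (SD, n = 2 each), or 3.31-fold, and the two-sided exact permutation p was 0.3333. It stood at percentile 94.7 of the 2257 differences.

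The Cebpg peaks also differed in length. They measured 955 bp in control 1, 379 bp in control 2, 1250 bp in starved 1 and 842 bp in starved 2, and the 379 bp of control 2 were shared by all. In control 2 the peak ended within the coding sequence and held no GGAC, the only member peak without one, while the other 3 peaks reached the 2 GGAC that lie 223 and 282 nt after the stop codon. The 3′ UTR of Cebpg runs on for 3962 nt and holds 11 more GGAC, none under a peak. Region 1, at chr7:35055645-35055940, lies in an intron of the main transcript, before the exon that holds the coding sequence, and is an exon of another annotated transcript. It was listed in starved 2 only, with a fold enrichment of 41.23 and a score of 1976.83.

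Among the genes that hold back signalling, Ddit4 encodes REDD1, an inhibitor of mTORC1, and its peaks were weak throughout. Region 2, at chr10:59949739-59950987 over the later coding sequence and the 3′ UTR, had fold enrichments of 3.69 in control 1, 4.57 in starved 1 and 3.18 in starved 2, with scores of 225.15, 777.42 and 76.48. Control 2 had no peak, and the single control value lay between the starved values. The peaks stood at percentiles 5.9, 8.5 and 1.9 of their lists. Region 1, at chr10:59951317-59951572 around the start codon, was listed in starved 1 only, with a fold enrichment of 2.35 and a score of 83.84. Although weak, these peaks together covered 85.8% of the transcript.

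Trib3 encodes a pseudokinase that binds and restrains ATF4 and CHOP and blunts AKT signalling. Its region, at chr2:152337422-152338687, had fold enrichments of 5.9 in control 1, 11.93 in control 2, 7.9 in starved 1 and 8.91 in starved 2, and the starved values lay between the control values. The mean log2 fold enrichment was 3.07 ± 0.72 in control and 3.07 ± 0.12 in starved cells (SD, n = 2 each), and the p was 1.0 in the two-sided exact permutation test. The peaks were not at one place, however. That of control 1 (score 221.56) lay at chr2:152337422-152337724 in the 3′ UTR, and that of starved 2 (score 2160.26) at chr2:152338239-152338687 within the coding sequence. Control 2 had a peak in each part, at chr2:152337528-152338038 with a score of 470.01 and at chr2:152338170-152338687 with a fold enrichment of 6.28 and a score of 156.11. Starved 1 had 1 peak of 1232 bp across both (score 979.85), and it alone joined them into a region. No base was under a peak of all 4 libraries, which held for 8.2% of the 2257 regions, so the equal means compare different parts of the transcript.

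The highest fold enrichments of the set in control 1 and starved 2 were in Ppp1r15a, while Atf3 region 1 was highest in control 2 and Cebpb in starved 1. Ppp1r15a encodes GADD34, the stress-induced subunit that directs protein phosphatase 1 to eIF2α. Region 3, at chr7:45523739-45524754 in the large coding exon, had fold enrichments of 142.16 in control 1, 43.36 in control 2, 55.08 in starved 1 and 90.33 in starved 2. All of these peaks were at the score limit of 3100. The groups overlapped, and control 1 and control 2 differed from each other by more than the starved libraries did. The log2 difference was -0.15, with means of 6.29 ± 1.21 and 6.14 ± 0.50 (SD, n = 2 each), and the p was 1.0 in the two-sided exact permutation test. Without control 1 it was 0.70 and without control 2 it was -1.01.

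The Ppp1r15a peaks of region 3 all began at the same exon edge, on the side of the stop codon, and differed in how far they ran upstream. The main peak of control 2 was 285 bp long, and those of control 1, starved 1 and starved 2 were 974, 847 and 1016 bp long. Control 2 had a second, weak peak in the region, at chr7:45524288-45524499, with a fold enrichment of 2.18 and a score of 54.67. Region 4, at chr7:45523061-45523322 in the last exon, ends at the other side of the same intron. It was listed in control 2 with a fold enrichment of 4.03 and a score of 52.64, and in starved 2 with 5.82 and 151.66. Region 2, at chr7:45524964-45525212 in the early coding sequence, was listed in control 1 only, with 3.13 and a score of 140.92. Region 1, at chr7:45525839-45526038, was listed in starved 2 only, with a fold enrichment of 43.4 and a score of 3100. Of its 200 bp, 44 lie in the 5′ UTR of the main transcript and the others in the intron after it, which an unspliced annotated transcript includes.

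Ppp1r15b encodes CReP, the constitutive counterpart of GADD34, and had the most peaks of the members, 13 in 4 regions. Region 1, at chr1:133131724-133133615, fills most of the large coding exon. Its fold enrichment was 6.37 in control 1 and 6.89 in control 2, with scores of 54.08 and 359.33, and 15.23 in starved 1 and 19.75 in starved 2, both at the score limit of 3100. Both starved libraries were above both control libraries, and the libraries of each group were close. The score of the control 1 peak, however, was near the lowest of any list, 50.01. This peak also overlaps an exon of Gm26616 on the opposite strand, and the lists give no strand. The log2 difference was 1.39, with means of 2.73 ± 0.08 and 4.12 ± 0.27 (SD, n = 2 each), or 2.62-fold, and the two-sided exact permutation p was 0.3333. It stood at percentile 90.3 of the 2257 differences.

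These values are the highest peak of a library, since control 2 and starved 1 each had a pair of peaks in the exon. The other peak of control 2, at chr1:133132511-133133615, had a fold enrichment of 4.41 and a score of 104.21. That of starved 1, at chr1:133131919-133132628, had 7.86 and 456.91. In the earlier part of the exon, therefore, 6.89 in control 2 stood beside 7.86 in starved 1, and the later part of the exon, 4.41 beside 15.23, held most of the difference between these libraries. The single peaks of control 1 and starved 2 were 1892 and 1751 bp long and span both parts. With the mean of the peaks of a library in place of the highest, the log2 difference was 1.33.

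Region 2 of Ppp1r15b, at chr1:133136663-133137214, starts at the next exon and covers the stop codon. Fold enrichment was 21.66 in control 1, 3.91 in control 2, 13.65 in starved 1 and 17.38 in starved 2, with scores of 3100, 66.73, 2467.31 and 2700.7. The starved values lay between the control values. The log2 difference was 0.74, with means of 3.20 ± 1.75 and 3.95 ± 0.25 (SD, n = 2 each), and the p was 1.0 in the two-sided exact permutation test, and it was -0.49 without control 2. Across the intron regions 1 and 2 abut in the spliced mRNA, so that in all 4 libraries the listed peaks ran on from the large exon past the stop codon.

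In the 3′ UTR of Ppp1r15b the peaks did not recur within a group. Region 3, at chr1:133137826-133138171, was listed in control 2 only, with a fold enrichment of 4.48 and a score of 360.45. Region 4, at chr1:133138805-133139371, had 3.38 and a score of 189.63 in control 1 and 7.08 and a score of 947.8 in starved 2.

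**Figure D2:**
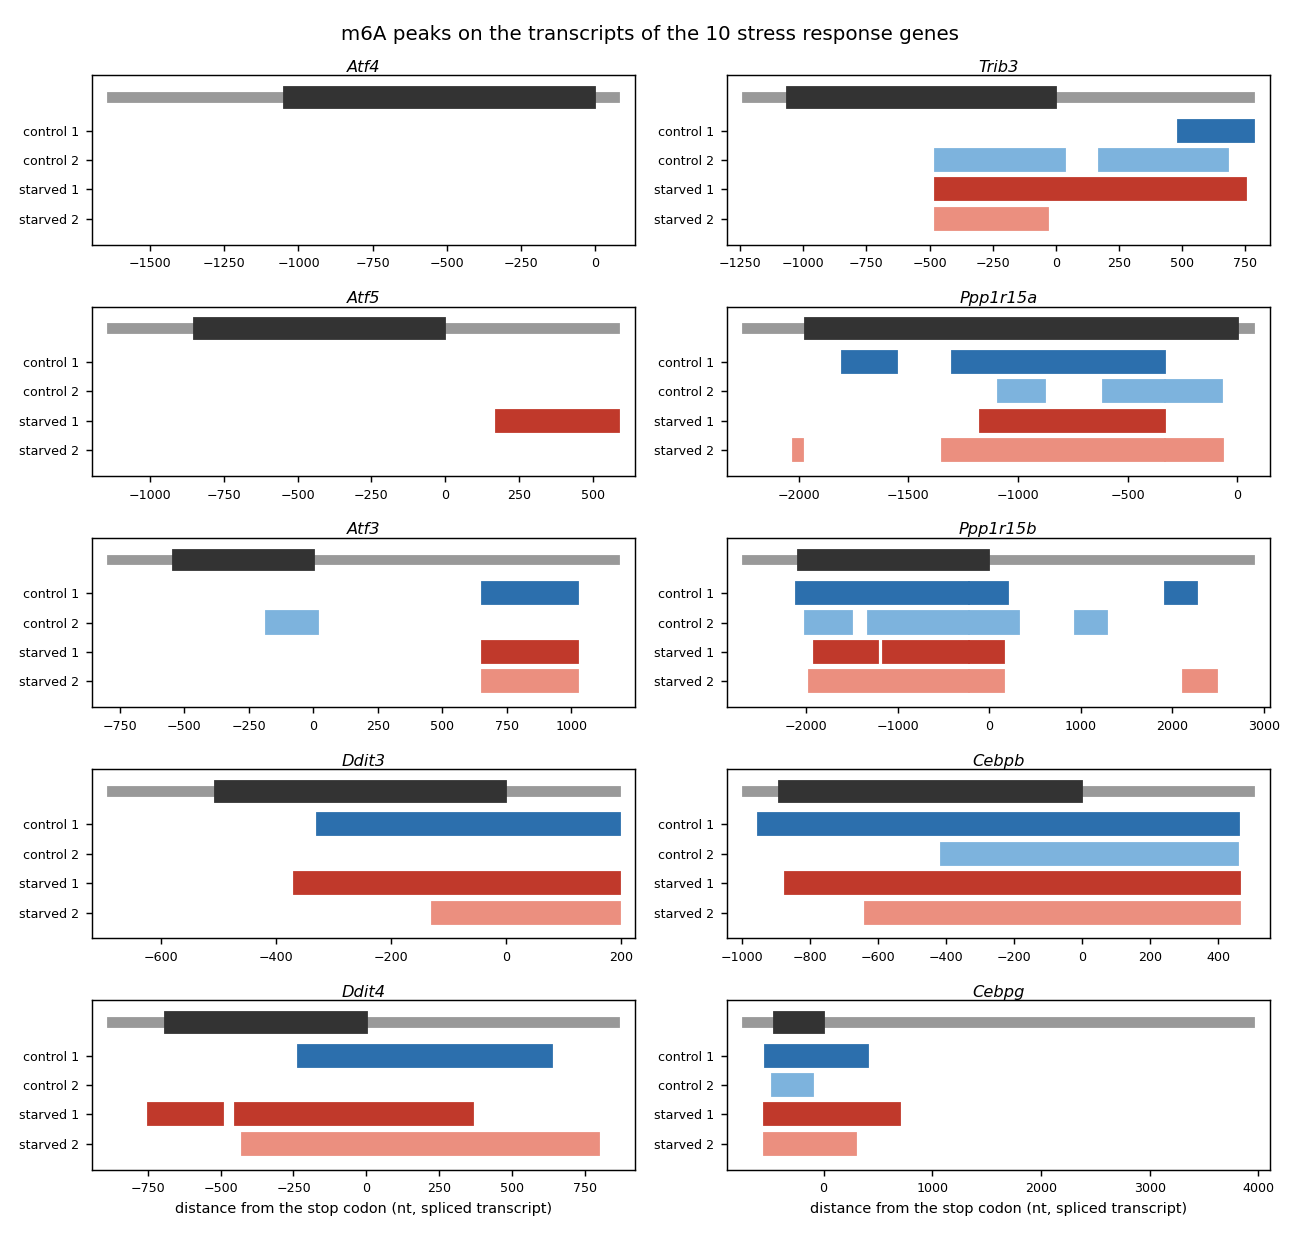
Peaks of the 4 libraries along the spliced main transcript of each gene, by distance from the stop codon in nt, with the coding sequence as the thick dark bar, the UTRs as thin grey bars, control peaks in blue and starved peaks in red. Atf4 has none, the Trib3 peaks of control 1 and starved 2 do not meet, and the Ppp1r15b peaks run across the exon junction; Cebpg region 1 and the intronic part of Ppp1r15a region 1 lie outside these transcripts and are not drawn.

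Set against all peaks, the members' peaks had a low median rank in the control lists and a higher one in the starved lists. The size of this contrast depended on peaks that only 1 library listed. The median percentile of their fold enrichment within its own list, which takes out the higher level of the starved lists, was 24.8 in control 1, 24.9 in control 2, 38.0 in starved 1 and 55.8 in starved 2. The starved libraries were above the control libraries, and differed from each other by more than the control libraries did. The starved 2 median includes Cebpg region 1 and Ppp1r15a region 1, at percentiles 80.9 and 82.2, which no other library listed. Other peaks of 1 library were at 2.8 in control 1, 86.0 and 10.6 in control 2, and 0.7 and 0.1 in starved 1. Without all these peaks of 1 library the starved 2 median was 38.8, that of its Atf3 peak, and the starved 1 median rose. The control 1 median rose to a value between 24.8 and 48.1, a range that also holds the starved 2 value. The control 2 median did not change. The medians were not tested between groups. The members' median fold enrichment was 6.37 and 6.58 in control and 10.9 and 17.4 in starved cells. At the score limit were 2 of 11 and 2 of 12 member peaks in the control lists and 4 of 12 and 5 of 13 in the starved lists, beside 17.0%, 13.2%, 28.5% and 27.8% of all peaks in the same order, so the members' counts followed those of their lists. The deposited false discovery rate, read as a percent, was between 7.52 and 83.81 for the member peaks. It was above 5% for every peak of all the lists.

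**Figure D3:**
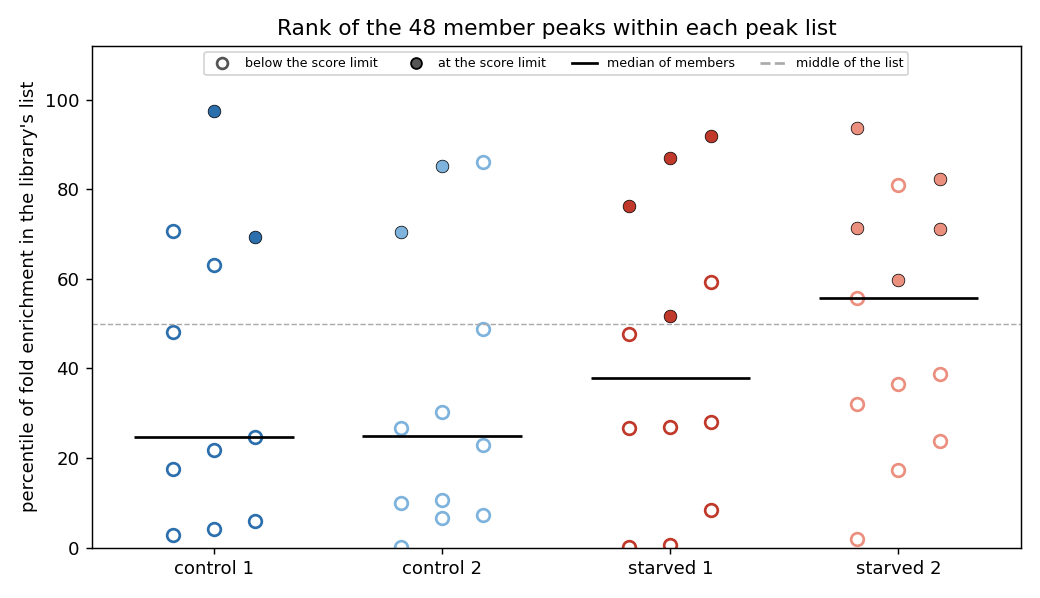
Percentile of each of the 48 member peaks among the fold enrichments of its library's list, filled where the score is at its limit, with the members' median as a black line and the middle of the list dashed. The medians are 24.8 and 24.9 in the control lists and 38.0 and 55.8 in the starved lists, and each list holds members from near its bottom to above percentile 85.

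The place of the peaks on the transcripts was described by the peak centre. Of the 48 member peaks, the centre lay near the stop codon (100 nt to either side) in 13, elsewhere in the coding sequence in 21, in the 3′ UTR in 12 and in the 5′ UTR in 2. These are 27.1%, 43.8%, 25.0% and 4.17%, where all placed peaks gave 12.6%, 46.1%, 36.5% and 4.86%. A region counts once for each peak listed in it, so the 48 peaks from 18 regions are not independent. Both peaks centred in a 5′ UTR, those of Ppp1r15a region 1 and Cebpg region 1, were in starved 2. Their centres lie in an intron of the main transcript, so each was placed on another annotated transcript of its gene. Of the 13 peaks near the stop codon, those of Ppp1r15b, Ddit3, Cebpb and Cebpg recurred between libraries. Of the member peaks 26 had an edge at an annotated exon edge, since the peaks follow exons, and 8 overlapped exons of another gene on the opposite strand.

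GGAC was present on the gene's strand under 47 of the 48 member peaks, or 97.9%, and under 80.6% of all peaks with sequence. The member peaks were longer, with a median of 513 bp against 364 bp, and so had more room for the motif. Per kb of exon under a peak there were 6.32 GGAC in the members and 4.92 in all genes. In the 200 bp at the centre of a peak the shares were 75.0% and 63.2%. The broader DRACH consensus was found under all 48 member peaks and under 99.5% of all peaks. Per kb it was less frequent in the members than in all genes, at 19.7 against 22.0, opposite to GGAC. Peaks of the same region in different libraries share their sequence, so these 48 are not independent.

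Short reading frames upstream of the coding sequence, which govern translation of several of these mRNAs in the response, were counted as an ATG in the 5′ UTR followed by a stop codon in its frame. The main transcripts held 6 in Atf5, 3 each in Atf4, Ppp1r15a and Ppp1r15b, 2 in Ddit3, 1 each in Atf3 and Cebpg, and none in Ddit4, Trib3 or Cebpb. The start of 1 of them was under a peak, that of Cebpg. Over the 10 genes the share of the main transcript under a peak of any library ran from 0.0% in Atf4 through 24.1% in Atf5 and 26.5% in Cebpg to 94.1% in Cebpb.

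The wider pathway was read from 7 lists of genes. Over all genes, 22.9% of the regions in all 4 libraries were higher and 18% lower in both starved libraries. Of all merged regions, 3.2% were in both starved libraries only and 4.15% in both control libraries only. Of the 6 eIF2 kinases and their partners all had a peak, 4 in every list, and 1 of their 2 regions found in all 4 libraries was higher in both starved libraries. It belongs to Eif2ak2, the double-stranded RNA sensor PKR, with fold enrichments of 22.73 and 23.72 in control and 33.65 and 33.39 in starved cells. Of the 8 eIF2 and eIF2B subunits 7 had a peak, none in every list. Among 11 partners and relatives of ATF4, 9 had a peak, 3 in every list. Their single region in all 4 libraries, in Nfe2l2, the regulator of antioxidant genes, was higher in both starved libraries, at 6.79 and 3.63 against 6.98 and 10.44.

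Among targets of ATF4, regions ordered by group were found in both directions. Of 18 genes of amino acid supply and one-carbon metabolism 14 had a peak, in 23 regions. Of these regions 3 were in all 4 libraries, 1 of them higher and 1 lower in both starved libraries. Both are in Slc7a5, the large neutral amino acid transporter. Its 3′ UTR region had 46.06 and 47.0 in control and 36.06 and 12.46 in starved cells, while a coding region had 4.25 and 3.48 against 9.96 and 4.42. Aldh18a1, an enzyme of proline synthesis, had a region around its stop codon in the starved libraries only, at 6.54 and 17.85, and another in the control libraries only, at 3.7 and 19.42. Mthfd2, of mitochondrial folate metabolism, had one in the control libraries only, at 3.2 and 3.42. Of 12 tRNA synthetase genes 11 had a peak, in 22 regions. None of their 2 regions in all 4 libraries was ordered by group, and Eprs had a region in the starved libraries only, at 18.45 and 6.43.

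Among 16 other targets 15 had a peak, 7 in every list, in 37 regions. Of these regions 5 were in the control libraries only and 2 in the starved libraries only, a difference that was not tested. Regions in the control libraries only were in Trib2 (55.52 and 48.04) and Trib1 (3.84 and 43.54), relatives of Trib3, in Gdf15 (12.5 and 57.47), a stress cytokine, in Vegfa (12.07 and 6.24), an angiogenic factor, and in Tnfrsf10b (2.45 and 5.86), a death receptor. Those in the starved libraries only were in Bcl2l11 (24.9 and 7.58) and Bbc3 (63.81 and 11.47), which encode the BH3-only proteins BIM and PUMA. Of their 6 regions in all 4 libraries none was higher and 1 was lower in both starved libraries, that of Ndrg1, at 30.78 and 84.14 against 18.61 and 8.5. The 10 genes of the unfolded protein response all had a peak, in 28 regions, 3 of them in all 4 libraries. The chaperone gene Hsp90b1 had a region that was higher, at 4.46 and 4.91 against 6.11 and 8.69, and one in the control libraries only, at 3.12 and 3.13. The chaperone gene Hspa5 had one that was lower, at 11.69 and 8.66 against 8.49 and 7.36. Over these lists the median log2 difference ran from -0.89 in the amino acid genes to 0.78 in the partners of ATF4, beside 0.98 in the 10 effectors, each over at most 6 regions.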

How the data were processed

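MeRIP-seq peak lists of 4 IP libraries were used. The 4 input libraries served as background in the authors' peak calling. The authors removed adapters with Cutadapt, mapped to mm10 with HISAT2 2.0.4, called peaks per IP library against its input with MACS2 and kept peaks on mRNA exons. The deposited fold enrichment is the ratio of IP signal to local input, the deposited score is −10 times the log10 of the p-value, and the authors' false discovery rate was read as a percent. An authors' table of differential sites holds their fold changes and p-values and was not used.

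The 10 members and the pathway lists were chosen with earlier results of these data known. All members and every peak of theirs are named. A gene of a pathway list is named when it had a region in all 4 libraries whose groups did not overlap, or a region in both libraries of 1 group only.

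Start positions, which count from 0, had 1 added. Peaks sharing 1 bp were merged over the 4 lists, and the highest fold enrichment per library was compared on the log2 scale by a two-sided exact permutation test. Members were placed on the GENCODE M21 transcript matched to their RefSeq entry, or on another coding transcript where the peak centre lay outside its exons. Other genes were placed on a coding transcript under the peak centre, and 6.65% of all peaks could not be placed. Peaks holding the motif were counted in joined exons of the GRCm38.p6 sequence. Merging into regions, the patterns over libraries and the log2 difference were tested on simulated peaks. The exact tests and the conversion to transcript positions were checked on small made-up examples. Motif counts and placement on GENCODE transcripts were not tested in this way. Python 3.11.15, pandas 2.3.3, numpy 2.4.6, pysam 0.24.0, samtools 1.23.1 and matplotlib 3.10.9 were used. Library depth is unknown from the lists, so counting error could not be computed. There were 0 unmapped columns.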

Additional observations from a re-analysis of the deposited data

How the results depend on the processing

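With only peaks of at least 4-fold enrichment, with only peaks of a score of at least 100, and with lists shortened to the best-scoring peaks of the shortest, the difference in member peaks per library was 2.0 in place of 1.0 in each case. The difference in genes with a peak was 1.0 under each of these. Assignment by exon overlap changed neither. Leaving out 1 library at a time gave 0.5 to 1.5 peaks, 0.5 to 2.5 genes, and 0.71 to 1.18 for the median log2 difference over the member regions. No region was found in both libraries of 1 group only under any of the 4 alternatives tried for that count. The GGAC share was 75.0% in 200 bp at the peak centre, a shorter window, and DRACH gave 100.0%.

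In Cebpg region 2, Ppp1r15b region 1 and Cebpb region 1 both starved values were above both control values, so leaving out a library could not change the sign. Their log2 differences then ran from 1.41 to 2.04, 1.20 to 1.58 and 0.51 to 1.92. The sign was not stable in Trib3 (-0.51 to 0.51), Ppp1r15a region 3 (-1.01 to 0.70, and 0.31 with the mean of a library's peaks) and Ppp1r15b region 2 (-0.49 to 1.98). Scaling each library by its median over regions in all 4 libraries lowered the median difference from 0.98 to 0.77. With lists of equal length both Ppp1r15b regions lost a control peak and could not be compared, and the median over the remaining 4 was 0.61. The deviations of same-numbered libraries had a correlation of r = -0.02 over the 2257 regions. Whether these libraries were prepared together is not given in the labels and was not tested. As a replicate block the paired differences had the same means, 1.0 peak, 1.5 genes and 0.98 for the median log2 difference, and a smallest possible p of 0.5.

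The limits are those of 2 libraries a group, of an unknown depth and of scores that stop at 3100. A region takes the level of a library's highest peak, wherever it lies in the region.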

Other observations

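Markers of other cell types were looked up in the same lists. Of 6 epithelial markers 3 had a peak, and Krt18, a keratin, had a region in the control libraries only, at fold enrichments of 10.89 and 24.17. Of 5 neural markers 4 had a peak, 2 of them in every list. Among the fibroblast markers 4 had a peak in every list, and Pdgfra, a growth factor receptor gene, had a region in the control libraries only, at 12.42 and 21.22. Col5a1, a collagen gene, had 3 regions in the starved libraries only, with fold enrichments of 4.86 and 3.95, of 9.75 and 4.35, and of 12.17 and 9.31. Fn1, for fibronectin, had 1 such region, at 3.57 and 5.69, and Col3a1, another collagen gene, had one in the control libraries only, at 3.37 and 3.93. The fibroblast markers had 34 regions in all and the epithelial markers 3. Over all merged regions the shares were 3.2% in the starved libraries only and 4.15% in the control libraries only.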
